A study of Mus musculus with 9 samples.

Results

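Circular RNAs of mouse liver after ischemia and reperfusion were compared with those of sham liver on 6 of the 9 arrays of the study. The 3 sham arrays came from male C57BL/6 mice in which the hepatic artery and portal vein were isolated and not clipped. The 3 IRI arrays came from male C57BL/6 mice whose vessels were clipped for 1 h, which cuts off the blood flow to a large part of the liver, and which then had 6 h of reperfusion. Each array held the RNA of 1 liver, and neither a genetic change nor the age of the mice is stated in the labels. The 3 remaining arrays, of livers preconditioned (IPC) by a short clipping of 10 min and a release of 10 min ahead of the same injury, entered the fits as a further group that shared the estimate of the spread. The circRNA probes used were those with the scanner's flag for a signal well above background on 3 or more of the 9 arrays, which left 10536 of the 14236 circRNA probes.

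A circRNA forms when the spliceosome joins the end of an exon back to its own start or to that of an earlier exon. The closed ring has no free ends, so exonucleases such as RNase R, which was used here before labeling, degrade linear RNA and leave circRNA. CircRNAs turn over slowly in most cells, and some of them bind microRNAs or proteins. In liver IRI, the lack of oxygen is followed by oxidative stress at reperfusion and then by the entry of neutrophils and monocytes. An array of whole liver therefore reads a mixture of hepatocytes, sinusoidal and resident immune cells and infiltrating cells. In such samples a smaller number of cells of a type and less RNA per cell cannot be told apart.

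The files list the circRNA probes by the maker's IDs and pair them with no gene, position or sequence, so the results are given by probe. Several probes can belong to 1 transcript, and the files do not group them. The labeled tissue could be checked only with the control probes for linear RNA. Of 50 such probes, 44 carried an accession that matched a RefSeq symbol (GRCm38.p6), and 15 were well above background on all 9 arrays after RNase R. Apoe, the mRNA of an apolipoprotein that liver makes in large amounts, was among these 15.

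The arrays were read in 2 scans. Sham replicate 1 and IRI replicate 2 shared scan 2, and the other 4 sham and IRI arrays were read in scan 1. In scan 2, 11477 probes were well above background on the sham array and 11084 on the IRI array. In scan 1, sham replicates 2 and 3 had 7507 and 7370, and IRI replicates 1 and 3 had 6659 and 9012. The numbers overlapped between the groups (exact permutation test, two-sided P = 1.00, with 0.1 the smallest P that 3 arrays against 3 allow). Of the 1489 probes that were well above background on exactly 3 arrays, 1337 owed this to the 3 arrays of scan 2. The median log2 signal was 2.68 for probes detected on exactly 3 arrays and 2.20 for the 727 detected on exactly 2, which were left out. All 6 sham and IRI arrays detected 6275 probes, which are called bright probes below.

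No circRNA probe was detected on all arrays of a group and on none of the other. Probes that were 1 array short of this were few. On the IRI side 77 were detected on 3 IRI arrays and 1 sham array, and 20 on 2 IRI arrays and no sham array. On the sham side 23 were detected on 3 sham arrays and 1 IRI array, and 7 on 2 sham arrays and no IRI array. All of these are counts out of the 10536 probes and were not tested. The filter let in the 20 and the 7 only where an IPC array detected them too, so these 2 counts are cut short. Each group also held 1 array of scan 2, where more probes were detected, so that detection in 1 group alone was hard to reach.

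The normalization gave every array the same distribution of signals, so the changes below are relative to the other circRNA probes and show no shift of all circRNAs together. On this scale the log2 fold change from sham to IRI had a median of -0.014, which the normalization holds near 0, and 90% of the probes tested lay between -0.64 and 0.65. Among bright probes these limits were -0.49 and 0.53. On the log2 signals, normalized over the 9 arrays, limma with 1 mean for each group gave 252 increased and 179 decreased probes (a 1.5-fold or larger change and an unadjusted P below 0.05, the criteria of the methods), which are 2.39% and 1.7% of the 10534 probes that had values in both groups. Altered probes were 4.09% of those tested. None passed 0.05 after the adjustment of Benjamini and Hochberg over all probes. In limma 439 had an unadjusted P below 0.05, 4.17% of those tested. Were no probe changed, a share of 0.05 would be the average. The methods' t-test also left none after adjustment, with 367 (3.48%) below 0.05 unadjusted, and its altered probes were 2.08% of those tested (1.19% increased and 0.893% decreased). The words increased and decreased below refer to the criteria without adjustment.

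**Figure D1:**
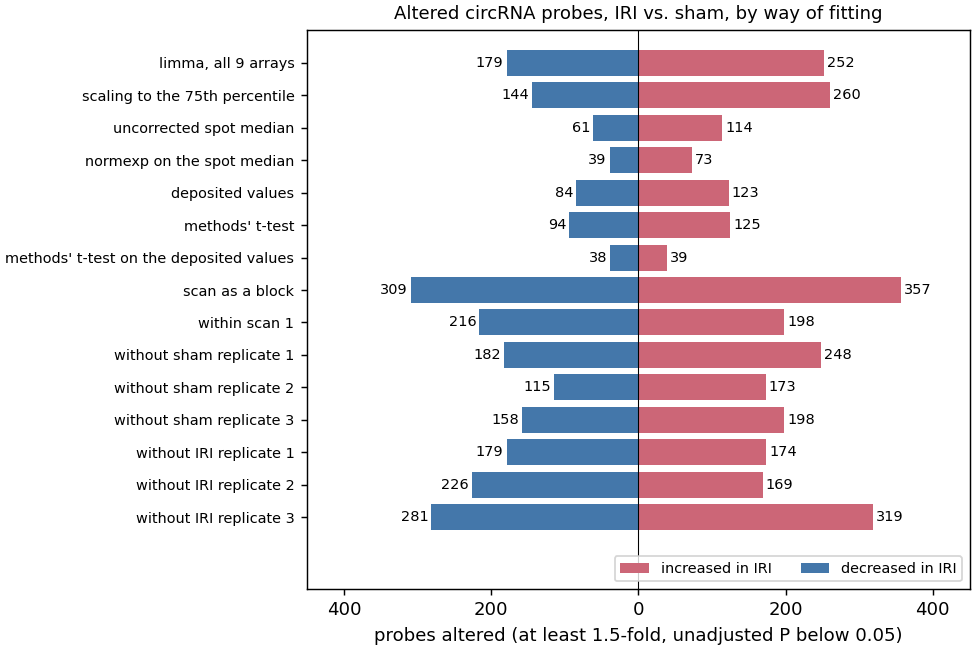
Number of circRNA probes altered between IRI and sham (horizontal axis, increased to the right and decreased to the left of 0) in 15 ways of fitting. The main fit gave 252 and 179, the scan as a block 357 and 309, and the fit without IRI replicate 3 gave 319 and 281.

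With the scan as a block, limma gave 357 increased and 309 decreased probes, or 3.39% and 2.93% and together 6.32% of those tested. Of these, 246 and 177 were also among the 252 and 179. Within scan 1 alone, 198 were increased (1.88%) and 216 decreased (2.05%), 3.93% in all, and 107 and 118 of them were shared with the fit over both scans. In limma 7.14% of the probes had an unadjusted P below 0.05 with the scan as a block, and 3.93% within scan 1. Neither fit left a probe after adjustment. In scan 2, which held 1 array of each group and allowed no test, 880 probes (8.36%) were at least 1.5-fold higher and 905 (8.6%) at least 1.5-fold lower on the IRI array, together 17% of the 10523 with values. Neither direction prevailed in all of these fits. Increased probes were 58.5% of those altered over both scans, 47.8% within scan 1 and 42.8% without IRI replicate 2.

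Of the 252 increased probes, 140 were bright, and on 88 of these the 3 IRI arrays lay above the 3 sham arrays. Of the 179 decreased probes, 81 were bright, and 67 of these did not overlap. Over all probes with 6 values, 3.65% had all IRI arrays above sham and 3.67% all below, or 7.31% in all. All of the 88 and 67 changed in the same direction within both scans, which follows from the lack of overlap. Their log2 fold changes were 0.59 to 1.81 with a median of 0.87 for the increased, and -2.04 to -0.61 with a median of -0.95 for the decreased probes. At least a 1.5-fold change in each scan was reached by 66 of the 88 and 49 of the 67, and a 2-fold change in each scan by 15 and 11. A fit with the scan blocked called 87 and 67 of them. On the authors' deposited values, where limma called 1.96% of all probes (1.17% increased and 0.797% decreased), 53 and 45 of them were called, and all 88 and 67 kept their sign. The methods' t-test on the deposited values called 31 and 29 of them, and 0.731% of all probes (0.37% increased and 0.361% decreased). These sets were selected on the same arrays, so the numbers describe them and are no test.

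The probes named here come from these 88 and 67 bright probes without overlap, ranked by the change in whichever scan showed the smaller one. Altered probes outside these sets, which were dimmer or overlapped between the groups, were not ranked. First among the 88 increased probes was ASCRP4008354. Its log2 signal was 6.51, 6.33 and 6.63 on sham arrays 1 to 3, and 8.83, 9.03 and 6.68 on IRI arrays 1 to 3. IRI replicates 1 and 2 stood well above all sham arrays, and IRI replicate 3 was level with the highest of them. The means were 6.49 ± 0.15 (SD, n = 3) in sham and 8.18 ± 1.30 (SD, n = 3) in IRI, a 3.23-fold difference on the linear scale. In limma the log2 fold change was 1.69 ± 0.54 (SE) with an unadjusted P of 0.0105 and an adjusted P of 1.00. The methods' t-test gave an unadjusted P of 0.0896, so that the probe was not altered in that test. The change was 1.28 within scan 1, where limma's unadjusted P was 0.0857, and 2.52 within scan 2. With 1 array left out it was 1.27 to 2.44, the highest without IRI replicate 3.

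The other increased probe, ASCRP4003997, was dimmer, with 3.52, 4.48 and 3.93 on the sham arrays and 5.54, 4.78 and 5.78 on the IRI arrays (log2 signal). Here IRI replicate 3 was the highest array and IRI replicate 2 the lowest of its group. The log2 fold change in limma was 1.39 ± 0.45 (SE; unadjusted P = 0.0118, adjusted P = 1.00), from 3.97 ± 0.48 (SD, n = 3) to 5.37 ± 0.52 (SD, n = 3). It was 1.46 in scan 1 and 1.26 in scan 2, and the standard error fell to 0.24 with the scan as a block. On the deposited values it was 0.66, a smaller change with an unadjusted P of 0.0264 in limma. With normexp background correction it was 0.41, which is under 1.5-fold, so that the probe was no longer altered. With 1 array left out it was 1.17 to 1.69.

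**Figure D2:**
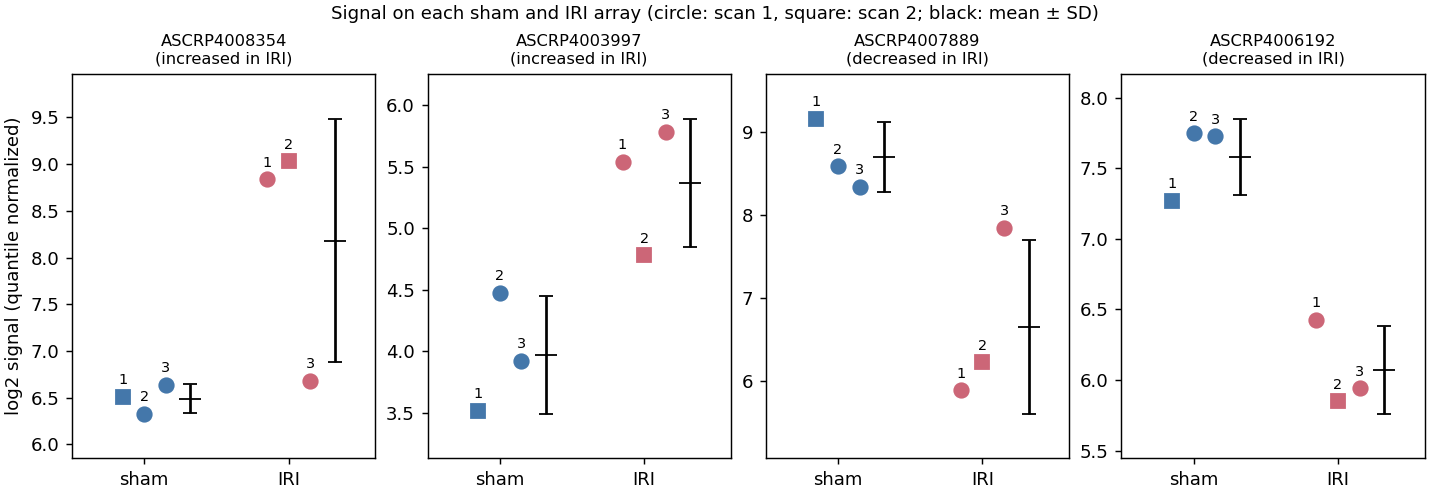
Log2 signal (vertical axis) of the 2 increased and 2 decreased probes on each sham and IRI array, numbered by replicate, with circles for scan 1 and squares for scan 2. Black marks give the mean and SD of 3 arrays. IRI replicate 3 lies next to the sham arrays for ASCRP4008354 (6.68) and ASCRP4007889 (7.85), and with the other IRI arrays for the other two.

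First among the 67 decreased probes was ASCRP4007889, whose log2 signal was 9.16, 8.59 and 8.34 in sham and 5.89, 6.23 and 7.85 in IRI. As for ASCRP4008354, IRI replicate 3 was nearest to the sham arrays. The mean fell from 8.70 ± 0.42 (SD, n = 3) to 6.66 ± 1.05 (SD, n = 3), 4.11-fold on the linear scale, and limma gave a log2 fold change of -2.04 ± 0.60 (SE; unadjusted P = 0.00669, adjusted P = 1.00). The change was -1.59 in scan 1 and -2.93 in scan 2. With 1 array left out it was -2.64 to -1.66, the largest decrease being that without IRI replicate 3.

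ASCRP4006192 was the most even of the 4 probes named. Its log2 signal was 7.27, 7.75 and 7.73 in sham and 6.43, 5.85 and 5.94 in IRI, with a gap between the groups that was wider than either group's range. From 7.58 ± 0.27 (SD, n = 3) it decreased to 6.07 ± 0.31 (SD, n = 3), and the log2 fold change in limma was -1.51 ± 0.28 (SE; unadjusted P = 0.000321, adjusted P = 0.977). It changed by -1.55 in scan 1 and by -1.42 in scan 2, and by -1.30 on the deposited values. With 1 array left out it was -1.68 to -1.39.

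The 2 scans hold different livers, so the change in one can be set against the change in the other. Over all 10515 probes with both values, 60.8% changed in the same direction in both scans. Of the 413 probes altered within scan 1, 325 or 78.7% had the same direction in scan 2 (exact binomial 95% interval 74.4% to 82.5%, for counting error only), and 172 of them changed at least 1.5-fold in that direction. Of all probes, 13.0% did so. The agreement was 77.2% for the 197 increased probes, where 45.4% of all probes were higher in scan 2, and 80.1% for the 216 decreased, where 54.6% of all probes were lower.

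Bright probes agreed more often. Of the 142 that were altered within scan 1, 135 had the same direction in scan 2, or 95.1%, where 62.8% of all bright probes did. These were 65 of 71 increased and 70 of 71 decreased probes. Of the 271 altered probes that were not bright, 70.1% agreed, where 58.0% of all such probes did. With the probes split by mean signal into 5 bins of equal size, the agreement of altered probes was 63.8% in the dimmest bin, 79.8% and 85.5% in the next 2, and 100% (40 of 40) and 96.6% in the upper 2. Over all probes of these bins it was 53.9%, 60.1%, 61.7%, 65.2% and 63.3%, from the dimmest to the brightest. The size of the scan 1 change moved with agreement too. It was 51.3% for bright probes that changed by less than 0.1 on the log2 scale, 70.4% for those between 0.25 and 0.58, and 96.1% for the 129 that changed by 1 or more. Across bright probes, which are not independent replicates, the changes in the 2 scans correlated at r = 0.55 (Spearman 0.42). This r was 0.16 without IRI replicate 1 and 0.71 without IRI replicate 3. Without sham replicate 2 or 3 it was 0.38 and 0.54.

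**Figure D3:**
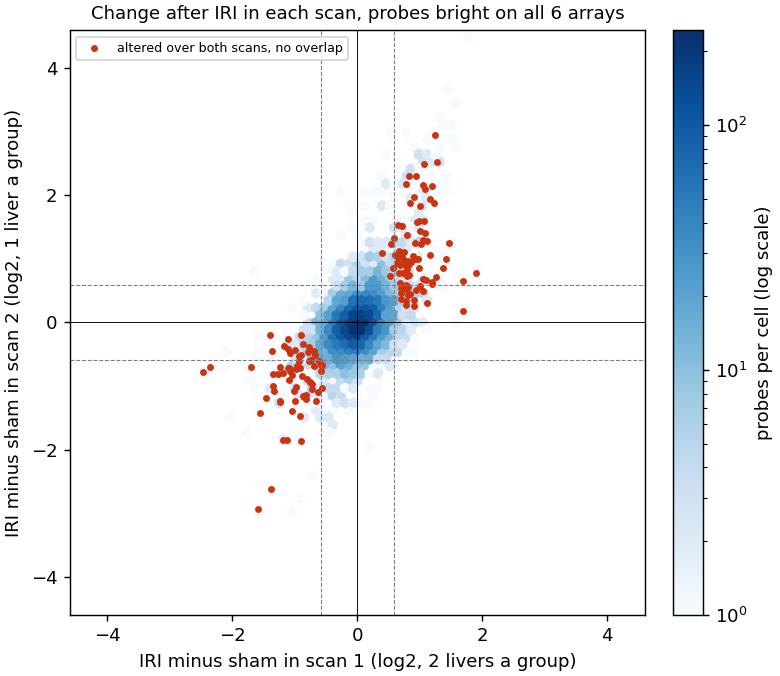
Change from sham to IRI (log2) in scan 1 (horizontal axis) and scan 2 (vertical axis) for the bright probes, shaded by the number of probes. Red points are the 88 increased and 67 decreased probes without overlap, and dashed lines mark 1.5-fold. The cloud is tilted towards equal signs, with r = 0.55 (0.16 without IRI replicate 1 and 0.71 without IRI replicate 3).

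**Figure D4:**
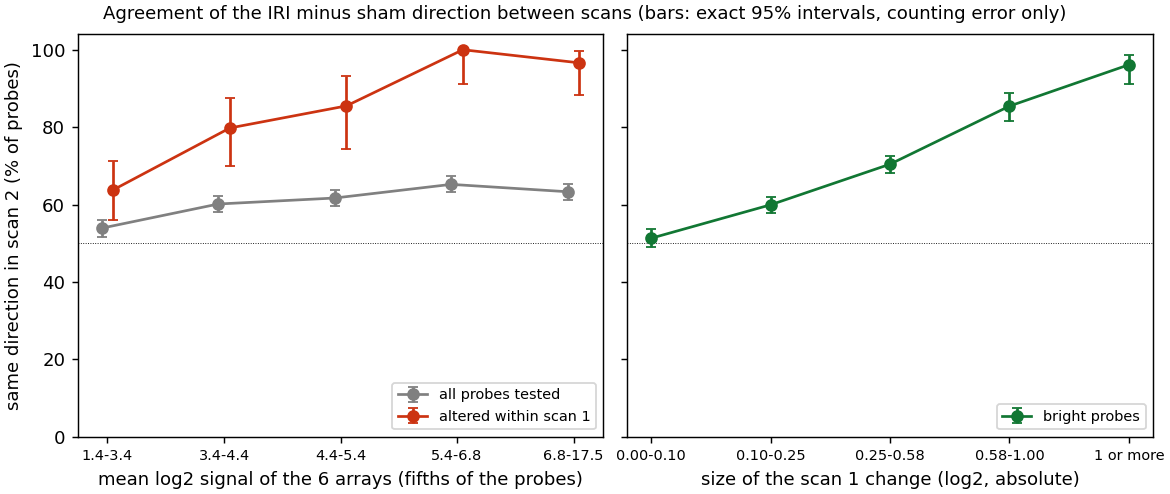
Percent of probes that changed in the same direction in scan 2 as in scan 1, by mean log2 signal in 5 bins of equal size (left) and by the size of the scan 1 change among bright probes (right). Bars are exact binomial 95% intervals for counting error. Agreement of the probes altered within scan 1 was 63.8% in the dimmest bin and 96.6% in the brightest.

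The agreement depended on IRI replicate 1. When scan 1 was fitted without it, 756 probes were altered and 57.1% of them had the same direction in scan 2, where 51.2% of all probes did, and among bright probes the shares were 63.3% and 52.2%. Without IRI replicate 3 the agreement was 80.6%, where 66.2% of all probes agreed, and among 233 bright altered probes it was 97.0%, against 69.4% of all bright probes. Leaving out sham replicate 2 or 3 gave 75.7% and 74.0%, where 59.5% and 58.3% of all probes agreed. Among bright altered probes these fits gave 96.3% and 98.2%, where 61.1% and 59.6% of all bright probes agreed. In each of these fits 1 group had a single array, whose spread was taken to be that of the other groups.

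The arrays of scan 1 were also compared one by one, over bright probes chosen by their change in scan 2. Being bright required detection on the scan 1 arrays too, but the size and direction of their changes were not used. For the 412 bright probes at least 1.5-fold higher on the IRI array of scan 2, the median log2 signal relative to the mean of sham replicates 2 and 3 was 0.67 on IRI replicate 1 and 0.15 on IRI replicate 3. Sham replicate 3 was at 0.16 and sham replicate 2 at -0.16, which mirror each other because their own mean was the reference. Against each sham array alone, the median difference of IRI replicate 3 was 0.33 from sham replicate 2 and -0.05 from sham replicate 3. For IRI replicate 1 it was 0.82 and 0.62. IRI replicate 1 was above the sham mean for 94.9% of these probes and IRI replicate 3 for 63.3%. Sham replicate 3 had 69.7% and sham replicate 2 the mirrored 30.3%. Over all bright probes the shares were 48.7% for IRI replicate 1 and 51.7% for IRI replicate 3. For the 339 probes at least 1.5-fold lower in scan 2, IRI replicate 1 was at -0.51 and IRI replicate 3 at -0.25, both below the sham arrays at 0.08 and -0.08. On these 2 IRI arrays 89.9% and 66.5% of the probes were below the sham mean, where sham replicate 3 had 60.5% and sham replicate 2 the mirrored 39.5%.

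**Figure D5:**
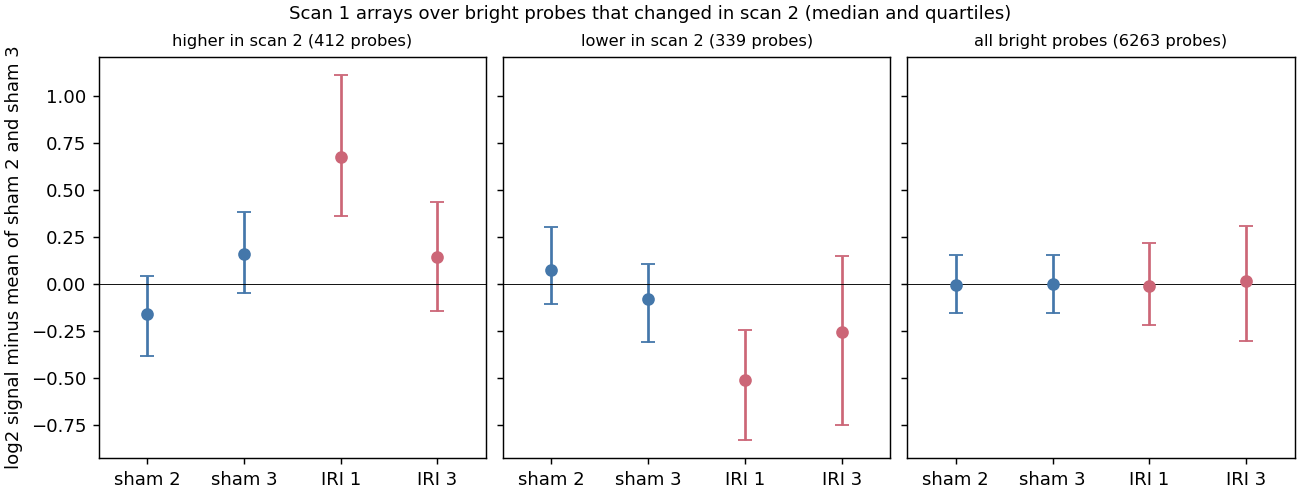
Log2 signal of the 4 scan 1 arrays minus the mean of sham replicates 2 and 3 (vertical axis; median, with quartiles as bars) over bright probes that were at least 1.5-fold higher (412) or lower (339) on the IRI array of scan 2, and over all bright probes. IRI replicate 1 follows the scan 2 change, with medians of 0.67 and -0.51, and the quartile range of IRI replicate 3 includes 0 in both sets.

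Differences between single arrays of scan 1 correlated with the scan 2 change to unequal degrees across the bright probes. For IRI replicate 1 the correlation was 0.72 against sham replicate 2 and 0.54 against sham replicate 3. For IRI replicate 3 it was 0.22 and 0.05. The 2 sham arrays of scan 1, which differ in no treatment, gave 0.24 for sham replicate 3 minus sham replicate 2, and the 2 IPC arrays and 2 IRI arrays of scan 1 gave 0.16 and 0.37 in size. Both values of IRI replicate 3 were below 0.24, that of the sham pair. The change in scan 2 minus the change in scan 1 was also tested for each probe in limma, with 3 residual degrees of freedom. The single arrays of scan 2 were taken to vary like the arrays of scan 1. No probe passed the adjustment, and 95 had an unadjusted P below 0.05, 0.903% of the 10515 tested. With so few arrays this does not show that the changes were alike in the 2 scans.

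Single arrays also decided which probes were altered over both scans. Without IRI replicate 3, 319 were increased and 281 decreased, and 177 of the 252 and 111 of the 179 were still among them. Without IRI replicate 1 only 107 and 106 were still altered, and without IRI replicate 2 they were 115 and 123. Leaving out sham replicate 1, 2 or 3 kept 147, 121 and 152 of the increased and 119, 84 and 106 of the decreased probes. None of the 431 turned its direction in any of these 6 fits. This is no test, since they were selected on the same arrays for a large mean difference. On the 88 increased probes without overlap, the IRI array nearest to sham was replicate 3 for 49, replicate 2 for 29 and replicate 1 for 10. On the 67 decreased it was replicate 1 for 35, replicate 3 for 19 and replicate 2 for 13.

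Arrays of the IRI group varied somewhat more among themselves than the sham arrays did. The median SD of the log2 signal of bright probes was 0.35 over the 3 IRI arrays and 0.31 over the 3 sham arrays, and it was larger in IRI for 58.1% of 6216 probes. Within scan 1 the median absolute difference between the arrays of a pair was 0.40 for IRI and 0.31 for sham. The mean correlation between sham and IRI arrays of the same scan was 0.955 (5 pairs), and for pairs within 1 group and 1 scan it was 0.946 (2 pairs). Across scans the order was the other way, with 0.921 between the groups and 0.932 within a group (4 pairs each).

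IRI replicate 3 had 44 circRNA spots marked as outliers, where the other 5 sham and IRI arrays had 5 to 13. Over the 15 detected linear probes, the median log2 signal relative to the circRNA probes detected on all 9 arrays was 2.07, 1.67 and 1.94 in sham and 1.38, 1.38 and 1.99 in IRI (exact permutation test, two-sided P = 0.3). The median of IRI replicate 3 lay within the sham medians, but this does not hold for each linear probe. IRI replicate 3 was above all sham arrays for Actb and Ppara, below all of them for Apoe and among them for Gamt. The median was the value of the Olfr166 probe on each of these arrays but IRI replicate 2, where it was that of Lhx1. The part of the outlier spots and linear probes in the circRNA results was not tested.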

How the data were processed

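The authors deposited 1 scanner file per single-color circRNA array (Arraystar, Agilent format), extracted with Agilent Feature Extraction 11.0.1.1, whose intensity values are background-corrected signals with flags for each spot. A table of log2 values that the authors had quantile normalized was deposited too, with its background correction not given in the sources used here and a median of 5.36 to 5.38 on each array.

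Processed signals of circRNA probes, without spots marked as outliers, were log2 transformed and quantile normalized over 9 arrays (limma 3.58.1, R 4.3.3). No circRNA spot was saturated. Groups were compared with limma (6 residual and 3.80 prior degrees of freedom), P-values were adjusted over all probes tested, and the scan was taken from the file headers. Named probes were altered, bright, without overlap and of the same direction in both scans, and were ranked by the smaller of the 2 scan changes. With no gene names given, 2 are printed for each direction. The number of arrays limits the precision. The members and rules were chosen with earlier results of these data known. For the alternatives on background correction, the spot median stood in for the spot mean. Nothing shows whether the livers of a group were processed apart, so that the P-values measure only the spread between these arrays. Fits were tested on simulated data.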

Additional observations from a re-analysis of the deposited data

How the results depend on the processing

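The numbers of altered probes depended on the processing, and why they moved was not tested. The main fit gave 252 increased and 179 decreased of 10534 probes tested, and the settings of the next sentence tested 10532 to 10536. Normexp on the spot median gave 73 and 39, the uncorrected spot median 114 and 61, the deposited values 123 and 84, the methods' t-test 125 and 94, and that test on the deposited values 39 and 38. Of the probes well above background on all 9 arrays only 5956 were tested, with 171 increased and 105 decreased. As shares of the probes tested, neither number is lower than in the main fit. The scan as a block gave 309 decreased. Leaving out 1 array gave 169 to 319 increased and 115 to 281 decreased.

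The next settings were chosen after seeing the data. With the scan as a block, the deposited values gave 155 and 109, a fit on only the 6 sham and IRI arrays 301 decreased, and leaving out 1 array 213 to 528 increased and 211 to 610 decreased (528 and 610 without IRI replicate 3, and decreased 304 without sham replicate 1, 299 without sham replicate 3 and 336 without IRI replicate 1). The deposited values within scan 1 gave 83 and 113. In 1 of the 33 fits, which blocked the scan and left out sham replicate 1, 1 probe passed the adjustment in limma, and in the others none did.

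The agreement between scans of the probes altered within scan 1 was 92.0% of 87 with normexp, 93.0% of 158 on the uncorrected spot median, 93.4% of 196 on the deposited values and 94.2% of 241 for probes well above background on all 9 arrays, against 78.7% of 413. Over all probes it was 60.7%, 60.8%, 60.9% and 63.2% in these settings, against 60.8%. Altered probes agreed in 57.1% to 80.6% with 1 array of scan 1 left out, and in the other settings in 74.8% to 79.3%. All 4 named probes kept their sign in the other 32 fits, which is no test, since they were chosen for no overlap on these same arrays. ASCRP4003997 fell to 0.41 with normexp, under 1.5-fold. For ASCRP4008354 the unadjusted P was above 0.05 in 6 of the 32 fits, the methods' t-test included.

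The replicate number as a block gave 201 increased and 144 decreased, and with the scan as a block as well 340 and 331. Deviations of same-numbered sham and IRI arrays correlated at -0.56 and -0.49 for replicates 1 and 2, which were split between scans. For replicate 3, within scan 1, the correlation was 0.14. Sham replicate 1 and IRI replicate 2, which shared scan 2, had 0.71. These values cannot tell pairing from the scan, and the numbers were not taken as pairs.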
